A study of Xenopus tropicalis with 45 samples.

Results

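Bone morphogenetic protein (BMP) signalling was followed in early Xenopus tropicalis embryos through 6 genes, namely the ligand genes bmp2 and bmp4 and the feedback and modulator genes szl, twsg1, bambi and smad7. The genes were chosen by name, but with earlier results of these data known, and they are 6 of the 28850 genes in the expression files. All 6 passed the filter on low counts in both inhibitor experiments. The study profiled histone deacetylase (HDAC) function in wildtype embryos, by ChIP-seq of the deacetylases Hdac1 and Hdac2, of the transcription factor Sox3 and of pan-acetylated histone H3 (H3Kac), and by RNA-seq of explants after HDAC inhibition. RNA came from 2 kinds of explant, animal cap (AC), which would form ectoderm, and vegetal mass (VG), which would form endoderm. Explants were cut from late blastulae that had been treated since the 4-cell stage, and they were harvested at the early gastrula (st10.5). The 8 groups of 2 independent biological replicates were AC with 100 nM trichostatin A (TSA) and AC with its solvent DMSO, VG with TSA and VG with DMSO, AC with 10 mM valproic acid (VPA) and AC with water, and VG with VPA and VG with water. The paper describes TSA as a pan-HDAC inhibitor and VPA as an inhibitor of Class I HDACs, which include Hdac1 and other HDACs. A response to either is thus not specific to Hdac1. The ChIP-seq lists used here came from whole embryos at st8, st9 and st10.5, some of them treated with TSA or DMSO, and for H3Kac also from DMSO-treated AC and VG explants. All of these embryos were wildtype.

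BMP ligands bind a complex of serine/threonine kinase receptors, which phosphorylate receptor-activated Smads. These join the common partner Smad4 and switch on target genes, in the ventral and epidermal ectoderm of the frog gastrula among other places. Several of the targets encode dampeners of the same pathway: bambi encodes a pseudoreceptor that lacks the kinase domain, smad7 an inhibitory Smad, and szl (Sizzled) a secreted inhibitor of the proteases that cleave the BMP antagonist Chordin. Twsg1 is a secreted protein that binds both BMPs and Chordin.

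Position is given as in the RefSeq annotation of the UCB_Xtro_10.0 assembly, without strand. The ligand gene bmp2 spans chr5:25392894-25404642 and bmp4 spans chr8:94976275-94982466. The feedback genes lie at chr3:71700005-71702739 (szl), chr6:104560267-104578803 (twsg1), chr6:24146699-24154309 (bambi) and chr1:205571498-205596874 (smad7). The low end of the bmp2 span overlaps LOC105947449, which spans chr5:25309714-25393610. The library kit did not mark strand, so reads and peaks in that overlap cannot be assigned to either gene. The bmp4 locus is shown with the study's own intron primers for ChIP-qPCR, because an intron of this member is among the ChIP-qPCR targets the study lists. The sequences are 20 bases each, 5′ to 3′, and were not placed on the genome here. No letters are in capitals, since no motif is marked.
bmp4 intron forward primer: tgctaataagcgtgcctttg
bmp4 intron reverse primer: aaggaggaccagcctattca

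The 16 RNA libraries held between 16892304 and 54350327 expected counts. Ribosomal RNA genes took 39.4% of the counts in AC TSA replicate 2 and 35.0% in AC DMSO replicate 2, against at most 4.38% in the other 14 libraries. The members' expected counts ranged between 49 (szl) and 9232 (bambi). The summed level of 11 ectoderm markers was 3834 to 4941 CPM (expected counts scaled to a common library total) in AC DMSO and 4645 to 6042 CPM in AC water, above the 1384 to 3040 CPM in VG libraries. The sum of 12 endoderm markers was 5625 to 9403 CPM in VG libraries and at most 464 CPM in AC libraries. Each list was thus higher in the tissue it marks in the controls, and both shifted in the AC under the inhibitors, as given beside the results.

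All CPM values below are scaled by TMM factors (trimmed mean of M-values), which put libraries of 1 experiment on a common scale. A gene is said to have risen or fallen only where its Benjamini-Hochberg adjusted p from edgeR's quasi-likelihood test, over all genes tested, was under 0.05 and its fold change above 2. SE is the standard error of a log2 fold change.

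In the controls, 3 of the 4 feedback genes were higher in AC, and bmp2 was lower in AC. Of the 6 genes, 4 differed between AC and VG under DMSO and 4 in water, where 21.7% and 14.9% of all genes tested did. szl, bambi and smad7 were higher in AC in both solvents, beside 9.67% of all genes under DMSO and 6.05% in water, and bmp2 was lower, beside 12.1% and 8.89%. With 2 libraries against 2, the AC and VG libraries did not overlap for 5 genes in either solvent, against 62.1% of all genes under DMSO and 58.8% in water.

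Among the ligands, bmp2 had 17.5 and 30.0 CPM in AC DMSO, against 99.7 and 130.2 CPM in VG DMSO. It had 12.2 and 10.1 CPM in AC water, against 65.8 and 72.2 CPM in VG water. Every VG control library was thus above every AC control library of its experiment, and bmp2 was lower in AC by log2 fold changes of -2.27 under DMSO and -2.63 in water (adjusted p = 0.00275 and 0.00164, edgeR). For bmp4, AC DMSO had 178 and 102 CPM and VG DMSO 83.5 and 70.3 CPM, while AC water had 236 and 158 CPM and VG water 152 and 79.3 CPM. Its AC values lay above the VG values in both experiments, but the differences of 0.86 and 0.77 on the log2 scale did not pass the test (adjusted p = 0.199 and 0.222, edgeR).

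Among the feedback genes, szl had 124 and 117 CPM in AC DMSO, against 7.86 and 4.84 CPM in VG DMSO, a log2 difference of 4.25 (adjusted p = 0.000443, edgeR). In water it had 82.4 and 80.9 CPM in AC and 13.9 and 5.44 CPM in VG, a log2 difference of 3.08 (adjusted p = 0.046, edgeR). The call in water was lost when any 1 of the 4 water libraries or either AC VPA library was left out (adjusted p between 0.0582 and 0.174, edgeR). bambi had 316 and 239 CPM in AC DMSO and 69.5 and 77.1 CPM in VG DMSO, and 242 and 211 CPM in AC water and 58.5 and 32.1 CPM in VG water. It was higher in AC by log2 differences of 1.92 and 2.32 (adjusted p = 0.00153 and 0.0038, edgeR). smad7 was higher in AC by 1.67 under DMSO and by 1.08 in water on the log2 scale (adjusted p = 0.00607 and 0.0146, edgeR). The smad7 call under DMSO was lost without VG DMSO replicate 2 (adjusted p = 0.0528, edgeR), and the call in water was lost without any 1 of the 4 water libraries (adjusted p between 0.0566 and 0.0896, edgeR). twsg1 differed by 0.06 on the log2 scale in either solvent, with overlapping libraries, and did not pass the test.

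**Figure D1:**
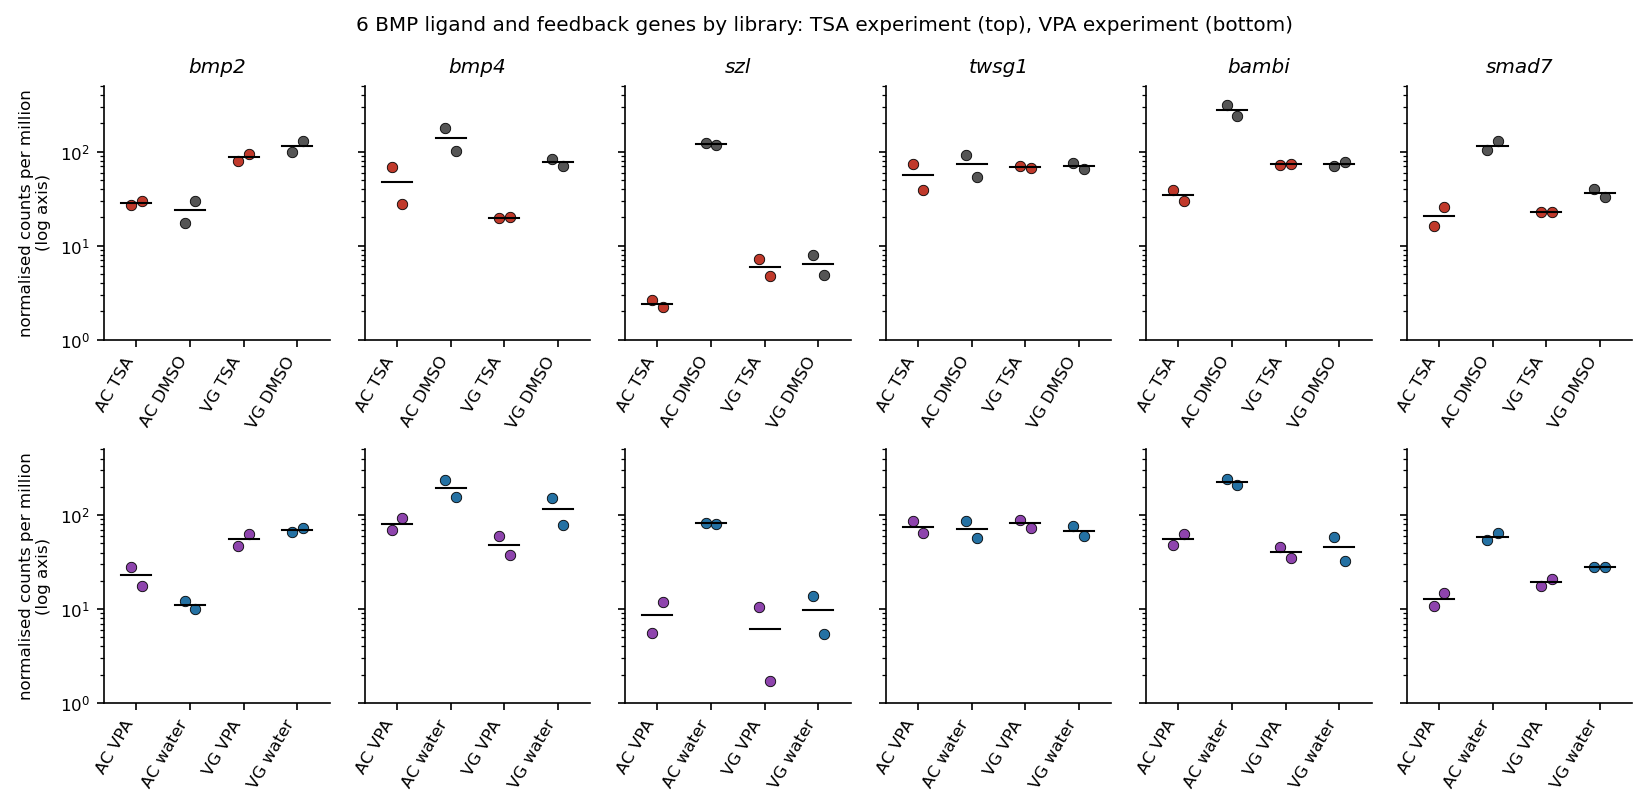
Normalised level of each of the 6 genes in the 16 RNA libraries, on a log axis in CPM. Points are single libraries and lines group means, by tissue and treatment, with the TSA experiment above the VPA experiment. The AC points of szl, bambi and smad7 sit far below the solvent points under TSA (szl 2.64 and 2.2 CPM, against 124 and 117 CPM with DMSO), while the twsg1 points overlap.

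Levels can be compared between genes only per transcript length, in TPM (length-scaled transcript abundance, the authors' RSEM values, which still include the ribosomal RNA reads). In AC DMSO, mean TPM ran in the order bambi (440 ± 144, SD, n = 2), szl (224 ± 39.0), bmp4 (127 ± 63.7), twsg1 (83.6), smad7 (56.5) and bmp2 (18.2). The libraries of bmp4 and twsg1 overlapped, and so did those of twsg1 and smad7. In AC TSA the highest means were those of twsg1, bambi and bmp4, at 69.8, 58.8 and 44.5 TPM, and szl was last at 4.84 TPM. The libraries of twsg1 (42.1 to 97.6 TPM), bambi (45.1 to 72.5 TPM) and bmp4 (22.5 to 66.4 TPM) overlapped there, so their order is not settled. In VG DMSO bambi was again first at 143 TPM, bmp2 followed at 108 TPM and twsg1 at 94.6 TPM, and szl was last at 14.8 TPM. The bmp2 libraries overlapped those of twsg1 there.

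TSA was compared with DMSO in the AC to ask what HDAC activity does for gene expression in the presumptive ectoderm. The feedback genes szl, bambi and smad7 fell, and no member rose. These are 3 of the 6 genes, where 2.3% of all genes tested changed, 1.29% rising and 1% falling. Libraries of the treatments did not overlap for 4 members, against 31.3% of all genes. The median log2 fold change of the 6 genes was -2.01, beside 0.00 over all genes tested and -2.11 over the 11 ectoderm markers.

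szl had 2.64 and 2.2 CPM in AC TSA, against 124 and 117 CPM in AC DMSO. The low values rest on 66 and 86 expected counts. Both TSA libraries were far under both DMSO libraries, and szl was 49.9-fold lower (log2 fold change -5.64, SE 0.373, adjusted p = 0.00498, edgeR). bambi had 39.3 and 30.0 CPM in AC TSA, against 316 and 239 CPM in AC DMSO. It was 8.01-fold lower, again with no overlap (log2 fold change -3.0, SE 0.229, adjusted p = 0.00571, edgeR). The paper itself lists bambi as down in the AC, among germ-layer genes that TSA and VPA both changed. smad7, which limits activin and TGF-beta signalling as well as BMP signalling, had 16 and 25.7 CPM in AC TSA, against 104 and 128 CPM in AC DMSO. It was 5.56-fold lower (log2 fold change -2.48, SE 0.281, adjusted p = 0.0130, edgeR).

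The calls for szl and bambi stayed when any 1 library was left out, whereas the smad7 call was lost without AC DMSO replicate 1 (adjusted p = 0.0552, edgeR) or AC DMSO replicate 2 (adjusted p = 0.0575, edgeR). Both libraries rich in ribosomal RNA are AC libraries of this comparison, 1 in each treatment. Without both, no member was called, with log2 fold changes of -5.58 for szl, -3.04 for bambi and -2.73 for smad7 (adjusted p = 0.114, 0.0922 and 0.103, edgeR), and only 2 of all genes passed. In that fit each AC treatment is 1 library, assumed to vary like the VG groups. Markers moved in the same explants: the 11 ectoderm markers summed to 1822 to 3122 CPM in AC TSA, against 3834 to 4941 CPM in AC DMSO, the 12 endoderm markers to 289 to 464 CPM, against 128 to 163 CPM, and the 13 mesoderm markers to 206 to 351 CPM, against 88.7 to 103 CPM. Of the 11 ectoderm markers, 5 fell and 0 rose, with a median log2 fold change of -2.11. Of the 12 endoderm markers, 3 rose and 0 fell (median 1.05), and of the 13 mesoderm markers, 3 rose and 1 fell (median 2.15). None of the ectoderm or endoderm markers was at 0 in any AC library. The markers were chosen with earlier results of these data known. The paper lists foxi4.2, tfap2a and dlx5 as down and hhex and osr1 as up in the AC under both inhibitors. The direction of these markers was thus known beforehand, and the marker medians are not an independent yardstick. Fewer cells of a type and less RNA per cell cannot be told apart in such bulk samples, and the part of these markers in the members' changes was not tested.

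The ligand genes and twsg1 were not called in the AC under TSA. bmp4 had 68.3 and 27.9 CPM in AC TSA, against 178 and 102 CPM in AC DMSO. Its treated libraries were both below the DMSO libraries (log2 fold change -1.54, 95% confidence interval -2.60 to -0.48, adjusted p = 0.159, edgeR), and DESeq2 called bmp4 there (adjusted p = 0.00804). So did edgeR with a term for the replicate number within tissue (adjusted p = 0.000562). bmp2 had 27.3 and 29.9 CPM in AC TSA, against 17.5 and 30.0 CPM in AC DMSO, and its groups overlapped (0.26, interval -0.42 to 0.95). twsg1 had 74.7 and 39.5 CPM in AC TSA, against 93.1 and 54.3 CPM in AC DMSO. Its groups overlapped as well (-0.37, interval -1.22 to 0.49), so neither a 2-fold fall nor no change lay outside that interval. That fit has no term for the replicate number, and twsg1 was lower with TSA within each number. Deviations of same-numbered AC TSA and AC DMSO libraries correlated at r = 0.80. An alternative fit gave twsg1 an adjusted p under 0.05, but none gave it a 2-fold change.

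In the VG, TSA changed none of the 6 genes by the test, where 0.0131% of all genes did, although 2 members had an unadjusted p under 0.05 and DESeq2 called 1, bmp4. bmp4 had 19.5 and 20.0 CPM in VG TSA, against 83.5 and 70.3 CPM in VG DMSO. The groups lay well apart (log2 fold change -1.96, interval -3.04 to -0.88), but the adjusted p was 0.34 with edgeR and 0.00252 with DESeq2. With a term for the replicate number within tissue, edgeR called bmp4 here too (adjusted p = 0.00309). That fit called 263 of all genes, against 2 without the term. The null result for bmp4 thus depends on the fit. smad7 had 22.6 and 22.5 CPM in VG TSA, against 39.8 and 33.2 CPM in VG DMSO (-0.69, interval -1.33 to -0.05, adjusted p = 1, edgeR). Libraries did not overlap for bmp4, smad7 and bmp2, 3 of 6 genes, against 21.5% of all genes. bmp2, with 80.0 and 94.2 CPM in VG TSA and 99.7 and 130.2 CPM in VG DMSO, differed by -0.40 (interval -1.08 to 0.28).

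szl and bambi, which fell furthest in the AC, had estimates near 0 in the VG, with intervals that held 0. The same was true of twsg1, which was not called in the AC. bambi had 73.0 and 74.0 CPM in VG TSA, against 69.5 and 77.1 CPM in VG DMSO (log2 fold change 0.00, interval -0.50 to 0.51). szl had 7.23 and 4.69 CPM in VG TSA, against 7.86 and 4.84 CPM in VG DMSO (-0.09, interval -0.84 to 0.66). twsg1 had 70.1 and 66.9 CPM in VG TSA, against 75.4 and 65.5 CPM in VG DMSO (-0.04, interval -0.90 to 0.82). For all 3 genes the TSA and DMSO libraries overlapped.

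The TSA effect itself was then compared between the tissues with an interaction term. It was lower in AC than in VG for szl by -5.55 on the log2 scale (SE 0.470, interval -6.66 to -4.44, adjusted p = 0.0169, edgeR) and for bambi by -3.0 (SE 0.308, interval -3.73 to -2.27, adjusted p = 0.0377, edgeR). These 2 of 6 members compare with 0.0853% of all genes called in this interaction, 0.0525% higher and 0.0328% lower. The difference for smad7 was -1.78 (interval -2.68 to -0.88, adjusted p = 0.279, edgeR), and DESeq2 called it (adjusted p = 0.00731). For bmp4 it was 0.42 (interval -1.05 to 1.89). For bmp2 it was 0.67 (interval -0.30 to 1.63). Leaving out any 1 of the 8 libraries ended both calls, with log2 differences between -5.95 and -5.20 for szl and between -3.21 and -2.85 for bambi and adjusted p between 0.0593 and 0.303 (edgeR).

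**Figure D2:**
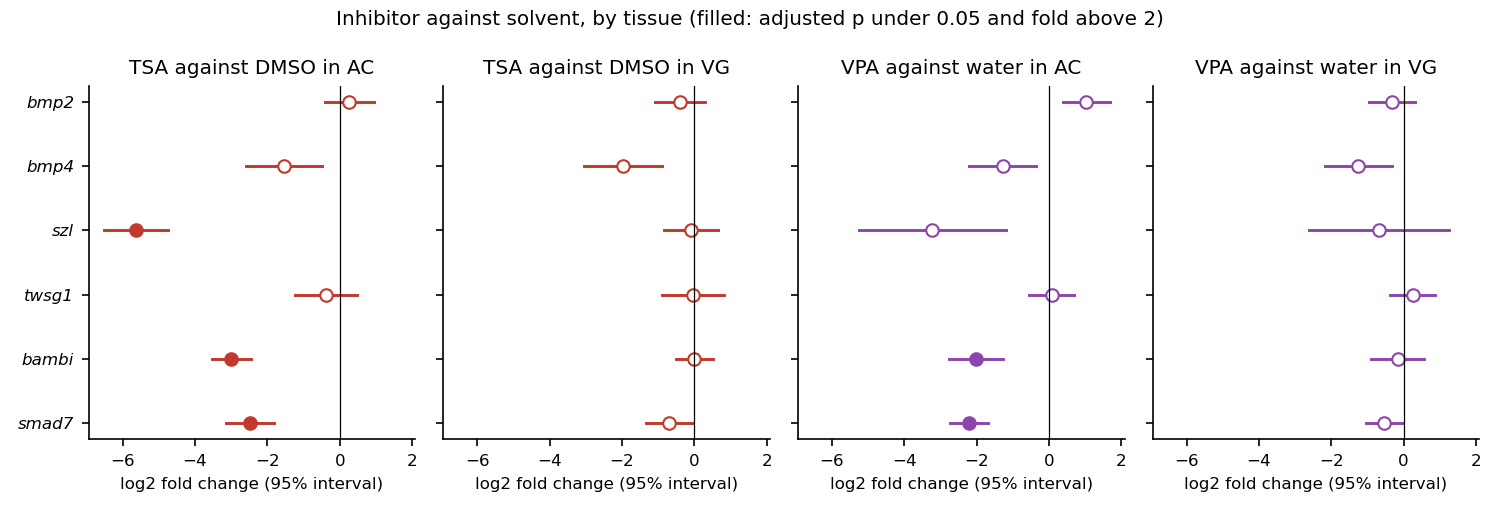
Log2 fold change of each of the 6 genes for TSA against DMSO and VPA against water in the AC and the VG. Points are edgeR estimates, bars their 95% confidence intervals and filled points the calls. szl, bambi and smad7 are called in the AC under TSA (-5.64, -3.0 and -2.48), bambi and smad7 under VPA (-2.02 and -2.21), and no gene is called in the VG.

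VPA, a weaker HDAC inhibitor of unrelated structure, was used as a second test of the same question. In the AC, bambi and smad7 fell and none rose. These 2 of 6 members compare with 2.1% of all genes that changed, 1.36% rising and 0.745% falling. Libraries did not overlap for 5 members, against 42.6% of all genes. The median log2 fold change of the 6 genes was -1.65, beside 0.01 over all genes and -1.46 over the 11 ectoderm markers.

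bambi had 48.4 and 63.2 CPM in AC VPA, against 242 and 211 CPM in AC water. Both treated libraries were below both water libraries, by 4.05-fold (log2 fold change -2.02, SE 0.315, adjusted p = 0.0384, edgeR). smad7 had 10.7 and 14.9 CPM in AC VPA, against 54.1 and 64.3 CPM in AC water, 4.62-fold lower and with no overlap (-2.21, SE 0.220, adjusted p = 0.0242, edgeR). szl had 5.61 and 11.8 CPM in AC VPA, against 82.4 and 80.9 CPM in AC water. Its treated libraries were far below the water libraries but also apart from each other, and the difference was not called (-3.23, interval -5.27 to -1.19, adjusted p = 0.115, edgeR). DESeq2 called it (adjusted p = 0.000206), as did edgeR without the filter on low counts or with all 16 libraries in 1 fit (adjusted p = 0.0406 and 0.0317).

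The bambi call under VPA was lost without any 1 of the 4 AC libraries or either VG VPA library (adjusted p between 0.0611 and 0.223, edgeR). The smad7 call was lost without AC water replicate 1, AC water replicate 2 or AC VPA replicate 1 (adjusted p = 0.200, 0.128 and 0.129, edgeR). The lone AC library of a treatment was in these fits assumed to vary like the other groups. The ectoderm markers summed to 2930 to 3193 CPM in AC VPA, against 4645 to 6042 CPM in AC water, and the endoderm markers to 180 to 354 CPM, against 81.2 to 91.8 CPM. The sums of the 13 mesoderm markers overlapped, at 151 to 295 CPM in AC VPA and 102 to 248 CPM in AC water. Of the 11 ectoderm markers, 5 fell and 0 rose, with a median log2 fold change of -1.46. Of the 12 endoderm markers, 1 rose and 0 fell (median 1.43). Of the mesoderm markers, 3 rose and 0 fell (median 0.945), so single mesoderm markers moved although the sums overlapped. As for TSA, some of these markers were listed with their direction already known. The part of these markers in the members' changes was not tested.

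Of the ligands, bmp2 had 28.1 and 17.5 CPM in AC VPA, against 12.2 and 10.1 CPM in AC water, and bmp4 had 69.5 and 92.8 CPM in AC VPA, against 236 and 158 CPM in AC water. The VPA and water libraries did not overlap for either ligand, with bmp2 on the high side and bmp4 on the low side under VPA. Neither passed the test. The log2 fold change was 1.03 for bmp2 (interval 0.38 to 1.68, adjusted p = 0.114, edgeR) and -1.28 for bmp4 (interval -2.20 to -0.35, adjusted p = 0.16, edgeR), and DESeq2 called both (adjusted p = 0.0209 and 0.0166). With a term for the replicate number within tissue, edgeR called bmp4 (adjusted p = 0.0452). twsg1 had 86.5 and 64.2 CPM in AC VPA, against 86.1 and 57.0 CPM in AC water, with overlap (0.07, interval -0.55 to 0.70).

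In the VG, VPA changed none of the 6 genes and 0% of all genes by edgeR, with 2 members at an unadjusted p under 0.05 and 0 members called by DESeq2. Libraries did not overlap for bmp4, smad7 and bmp2, 3 of 6 genes, against 35% of all genes. bmp4 had 59.9 and 37.4 CPM in VG VPA, against 152 and 79.3 CPM in VG water (log2 fold change -1.25, interval -2.18 to -0.32, adjusted p = 0.365, edgeR). smad7 had 17.8 and 20.9 CPM in VG VPA, against 28 and 28 CPM in VG water (-0.53, adjusted p = 0.532, edgeR). Both genes therefore had both treated libraries below both water libraries. bmp2 had 47.1 and 63.2 CPM in VG VPA, against 65.8 and 72.2 CPM in VG water (-0.32, interval -0.96 to 0.31).

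The remaining feedback genes overlapped between VPA and water in the VG. bambi had 45.8 and 34.9 CPM in VG VPA, against 58.5 and 32.1 CPM in VG water (-0.17, interval -0.89 to 0.56). szl had 10.4 and 1.70 CPM in VG VPA, against 13.9 and 5.44 CPM in VG water (-0.68, interval -2.62 to 1.26). twsg1 had 89.8 and 73.2 CPM in VG VPA, against 76.4 and 60.7 CPM in VG water (0.25, interval -0.37 to 0.87). The interval of szl spans both a 4-fold fall and a 2-fold rise, so these libraries do not fix its response in the VG.

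No member passed the interaction test between tissues for VPA, where 0.00659% of all genes did, although 3 members had an unadjusted p under 0.05 and DESeq2 called bambi and smad7 (adjusted p = 0.0115 and 0.000962). The VPA effect in AC minus that in VG was -1.85 for bambi (interval -2.88 to -0.82, adjusted p = 0.564, edgeR), -1.68 for smad7 (interval -2.39 to -0.96, adjusted p = 0.435, edgeR) and -2.55 for szl (interval -5.28 to 0.19). It was 1.35 for bmp2 (interval 0.45 to 2.26, adjusted p = 0.708, edgeR) and -0.03 for bmp4 (interval -1.32 to 1.27).

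Both bmp4 and smad7 had their inhibitor libraries below their solvent libraries in all 4 comparisons, and bmp4 was not tested against the feedback genes. The share of all genes with this pattern was not counted, so it has no background. In the single comparisons, libraries did not overlap, in either direction, for 21.5% to 42.6% of all genes. The bmp4 inhibitor libraries were below its solvent libraries at log2 fold changes of -1.54 and -1.96 for TSA in AC and VG and of -1.28 and -1.25 for VPA in AC and VG. None of these passed edgeR's quasi-likelihood test without a term for the replicate number, DESeq2 called 3 of the 4, and every edgeR interval lay below 0. With a term for the replicate number within tissue, edgeR called bmp4 for TSA in both tissues and for VPA in the AC. The samples of the 4 comparisons are separate libraries with their own solvent controls, but the comparisons need not be independent. Deviations of same-numbered libraries correlated across tissues in the VPA experiment. There r was 0.63 between AC VPA and VG VPA and 0.58 between AC water and VG water. Across tissues in the TSA experiment, r was -0.10 to -0.05.

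TSA and VPA were given at different doses, with different solvents, and in libraries of separate experiments, so their effects were set side by side and their difference was tested in 1 fit of all 16 libraries. In the AC the TSA effect minus the VPA effect was -2.45 for szl (interval -4.51 to -0.39), -1.02 for bambi (interval -1.86 to -0.18) and -0.30 for smad7 (interval -1.11 to 0.51), each with an adjusted p of 1 (edgeR). No member passed in either tissue, and 0% of all genes did with edgeR. At an unadjusted p under 0.05 there were 2 members in the AC and 0 in the VG, and DESeq2 called none of the 6 in either tissue. For szl and bambi the intervals lay below 0, whereas for smad7 the interval held both directions. The experiments and the compounds cannot be told apart here.

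The tissues were also compared under each inhibitor. Under TSA, 3 of 6 members differed between AC and VG, where 20.5% of all genes did, and all 3 were lower in AC, as were 10.6% of all genes, while 9.88% were higher. Libraries did not overlap for 4 members, against 62.2% of all genes. bambi was lower in AC TSA than in VG TSA by -1.08 on the log2 scale (39.3 and 30.0 CPM, against 73.0 and 74.0 CPM, adjusted p = 0.0134, edgeR) and szl by -1.30 (2.64 and 2.2 CPM, against 7.23 and 4.69 CPM, adjusted p = 0.0283, edgeR), the other direction from the solvent controls. bmp2 was lower by -1.61 (adjusted p = 0.00996, edgeR). For bmp4 the difference was 1.28 (adjusted p = 0.0815, edgeR), and for smad7 it was -0.11 (interval -0.75 to 0.52).

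The TSA calls between tissues depended on single libraries. Without AC TSA replicate 1, AC TSA replicate 2 or VG TSA replicate 1, szl was not called (adjusted p = 0.0770, 0.112 and 0.163, edgeR). bambi was not called without VG TSA replicate 1 or 2 (adjusted p = 0.0737 and 0.0688, edgeR) and its fold change was under 2 without AC TSA replicate 2 (-0.96). bmp2 was not called without AC TSA replicate 1 or VG TSA replicate 2 (adjusted p = 0.0509 and 0.0569, edgeR), and bmp4 was called without AC TSA replicate 2 (1.73, adjusted p = 0.0221, edgeR).

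Under VPA only bmp2 differed between AC and VG among the members, lower in AC by -1.28 (28.1 and 17.5 CPM, against 47.1 and 63.2 CPM, adjusted p = 0.0214, edgeR), where 12.8% of all genes were called, 5.26% higher and 7.5% lower in AC. Libraries did not overlap for 4 members, against 58.6% of all genes. The bmp2 call was lost without AC VPA replicate 2 or VG VPA replicate 2 (adjusted p = 0.0915 and 0.0976, edgeR). The differences were 0.47 for bambi (interval -0.26 to 1.19), 0.53 for szl (interval -1.40 to 2.46), 0.74 for bmp4 (interval -0.18 to 1.66) and -0.60 for smad7 (interval -1.10 to -0.09, adjusted p = 0.106, edgeR).

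The other genes of the pathway were taken from a list of 82 by role, of which 70 were in the files and 54 were tested for TSA and 55 for VPA. In the AC under TSA, 13 of 54 fell and none rose by edgeR, where 1% of all genes fell and 1.29% rose. DESeq2 called 3 higher and 17 lower of 69, and edgeR's likelihood ratio test 3 higher and 17 lower of 54. Of the 13, 8 were among the 15 direct targets. The median log2 fold change of these targets was -1.92, beside 0.00 over all genes and -2.11 over the ectoderm markers. The 2 lists are not separate, since tfap2a, dlx3 and dlx5 are on both. gata2, a ventral ectoderm and blood transcription factor, averaged 2.85 ± 0.0452 CPM in AC TSA and 211 ± 11.4 CPM in AC DMSO (SD, n = 2), a log2 fold change of -6.21. ventx1.1, a homeobox repressor of dorsal genes, averaged 1.28 ± 0.397 CPM in AC TSA and 124 ± 23.4 CPM in AC DMSO (-6.57). ventx1.2 fell by 6.29 and dlx3, an epidermal homeobox gene, by 7.29 on the log2 scale, and dlx3 had only 0.237 CPM in AC TSA.

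Outside the targets, the calls were spread over several roles. The ligand gene admp2 fell by 2.65 on the log2 scale, 1 of 7 ligand genes tested, and 0 of 7 receptor genes passed. Of 12 extracellular antagonists and modulators, rgma, a BMP co-receptor, fell by 2.47 and tsku, for a secreted BMP-binding protein, by 1.54. Of 12 Smads and intracellular regulators, zeb2, a Smad-interacting repressor, fell by 2.83. smad4.1, a gene for the common partner Smad, averaged 33.0 ± 5.18 CPM in AC TSA and 120 ± 7.98 CPM in AC DMSO (-1.86). Leaving out 1 library gave between 4 and 9 falls on this list, and 0 without both libraries rich in ribosomal RNA.

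In the AC under VPA, 7 of 55 pathway genes fell and none rose by edgeR, where 0.745% of all genes fell and 1.36% rose. DESeq2 called 2 higher and 15 lower of 69, and edgeR's likelihood ratio test 3 higher and 13 lower of 55. Of the 7, 5 were among 15 direct targets (median -1.40, beside 0.01 over all genes and -1.46 over the ectoderm markers). gata2 averaged 1.59 ± 0.641 CPM in AC VPA and 143 ± 16.9 CPM in AC water (SD, n = 2), a log2 fold change of -6.46. dlx3 fell by 5.22, msx1 by 4.87 and dlx5 by 3.01 on the log2 scale, all of them homeobox genes of the ectoderm. smad4.1 fell by 1.66 and tsku by 1.42, and 0 of 6 receptor genes passed. The median log2 fold change was 0.88 for 12 antagonists and modulators and -0.14 for 8 ligand genes. It was -0.42 for 6 receptor genes, -0.42 for 12 Smads and intracellular regulators and -0.92 for 2 protease genes. Leaving out 1 library gave between 1 and 4 falls. In the VG, edgeR called 0 pathway genes for either inhibitor, with 6 of 54 at an unadjusted p under 0.05 for TSA and 8 of 55 for VPA. DESeq2 called 1 higher and 3 lower for TSA and 1 higher and 2 lower for VPA there. The interaction between tissues was called for gata2, ventx1.1 and ventx1.2 under TSA (-5.18, -6.37 and -5.76) and for gata2 under VPA (-5.65), all in the direction of a deeper fall in the AC. None of the TSA calls remained without VG DMSO replicate 1, VG DMSO replicate 2 or VG TSA replicate 1, nor without both libraries rich in ribosomal RNA, and the VPA call was lost without any 1 of the 4 water libraries.

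**Figure D3:**
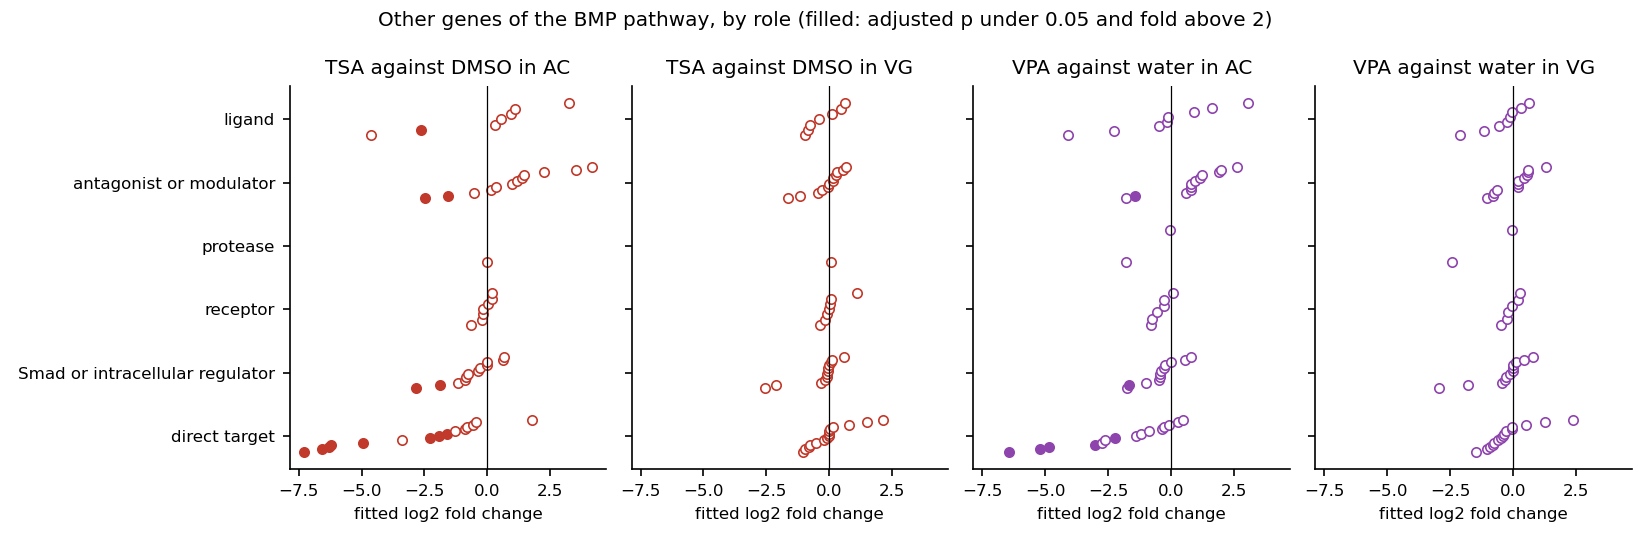
Log2 fold changes of the BMP pathway genes in the AC and the VG by role, for TSA against DMSO and VPA against water. Points are single genes and filled points are calls. Called points appear in the AC only and all lie below 0, with 8 of 15 direct targets called under TSA and 5 of 15 under VPA.

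Across the 16 libraries, centred within each experiment, the feedback genes szl, bambi and smad7 followed each other. Pearson's r of log2 CPM was 0.956 between bambi and szl, 0.866 between szl and smad7 and 0.833 between bambi and smad7. bmp4 correlated with these genes at r between 0.711 and 0.758, bmp2 at r between -0.607 and -0.416 with the other ligand and the feedback genes szl, bambi and smad7, and twsg1 at r between -0.05 and 0.26 with those genes. The libraries share tissue and treatment, so these values describe the groups more than single libraries. Among 12049 genes, those most like bambi were ventx2.2 (r = 0.958) and szl (0.956), those most like szl were ventx2.2 (0.960) and bambi (0.956), and those most like bmp4 were cited4 (0.956) and id3 (0.955). For smad7 they were yars2 (0.948) and tgif1 (0.945), for bmp2 raver2 and apoc1 (0.977 each), and for twsg1 iqcb1 (0.922) and alkbh3 (0.895).

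Hdac1 and Sox3 peaks were then counted near the 6 genes, a peak being near where its summit lay within 10 kb of the gene's span. At st8, 1 of the 6 genes had an Hdac1 peak, against 4.58% of all genes. This was smad7, with a peak inside its span at 5.39-fold enrichment over input. At st9 the number was 5 of 6 (18 peaks), against 13.2% of all genes, and at st10.5 it was 5 of 6 (34 peaks), against 46.7%. bmp2 was the gene without an Hdac1 peak in these lists. In the larger single-library lists of DMSO-treated embryos it had 2 Hdac1 peaks at st9 (up to 6.36-fold) and 3 at st10.5 (up to 4.99-fold). All 6 genes had a peak in both of these lists, against 61.9% of all genes at st9 and 67.8% at st10.5. The bmp2 peaks of the st9 DMSO list lay in a stretch at chr5:25392407-25394819, which takes in the overlap with LOC105947449. Between st9 and st10.5 the number of Hdac1 peaks was 5 and 11 near bambi, 5 and 8 near smad7, 3 and 7 near twsg1, 3 and 5 near szl, and 2 and 3 near bmp4, while the whole list held 5136 peaks at st9 and 22681 at st10.5. Long spans such as those of smad7 and twsg1 take in more peaks, and a peak near a gene need not act on it.

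Sox3, an early ectodermal factor that is also maternal, had peaks at st9 near 5 of 6 genes (25 peaks), against 32% of all genes, and bmp2 again had none. Of the 18 Hdac1 peaks near the members at st9, 17 overlapped a Sox3 peak, against 81.6% of the whole Hdac1 list, and 12 summits lay within 100 bp of a Sox3 summit, against 72.2%. At st10.5, 20 of 34 overlapped a Sox3 peak (37.7% of the list). Of the 25 Sox3 peaks near the members, 17 overlapped an st9 Hdac1 peak, against 26.9% of the Sox3 list.

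The strongest of these shared sites was near bambi. It lay at chr6:24138999-24139628, with its summit 7445 bp below the low end of the gene, at 11.6-fold Hdac1 enrichment at st9 (percentile 93.5 of the list). The Sox3 summit 56 bp away had a score of 127 (percentile 99.7 of the Sox3 list). Near szl, Hdac1 summits at st9 lay 155 bp and 9291 bp below the low end of the gene, at 6.26-fold and 9.93-fold enrichment, 1 bp and 74 bp from Sox3 summits with scores of 30.4 and 93.7. In bmp4 a shared site was inside the span, 3495 bp above its low end, at 5.11-fold enrichment at st9 and 10.3-fold at st10.5, with Sox3 summits at 30 and 10 bp (score 50.9). Another lay beyond the span, 12107 bp above its low end, at 4.55-fold enrichment at st9 and 2 bp from a Sox3 summit.

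smad7 and twsg1 carried shared sites too. Such sites were no more frequent near the members than over the whole st9 Hdac1 list, at 12 of 18 summits against 72.2%. In smad7, Hdac1 summits 5825, 7357 and 22237 bp above the low end of the span lay 67, 31 and 45 bp from Sox3 summits, and the highest st10.5 enrichment, 14.8-fold (percentile 99.2), was at 25159 bp, 219 bp from a Sox3 summit. In twsg1 a shared site lay 9648 bp above the low end of the span with summits 2 bp apart, although twsg1 was not called in any comparison. Hdac2, from a single library per stage, had peaks near 5 of 6 genes at st9 (53.2% of all genes) and near 6 of 6 at st10.5 (62.6%). All 18 of the st9 Hdac1 peaks near the members overlapped an st9 Hdac2 peak, against 97.2% of the list.

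**Figure D4:**
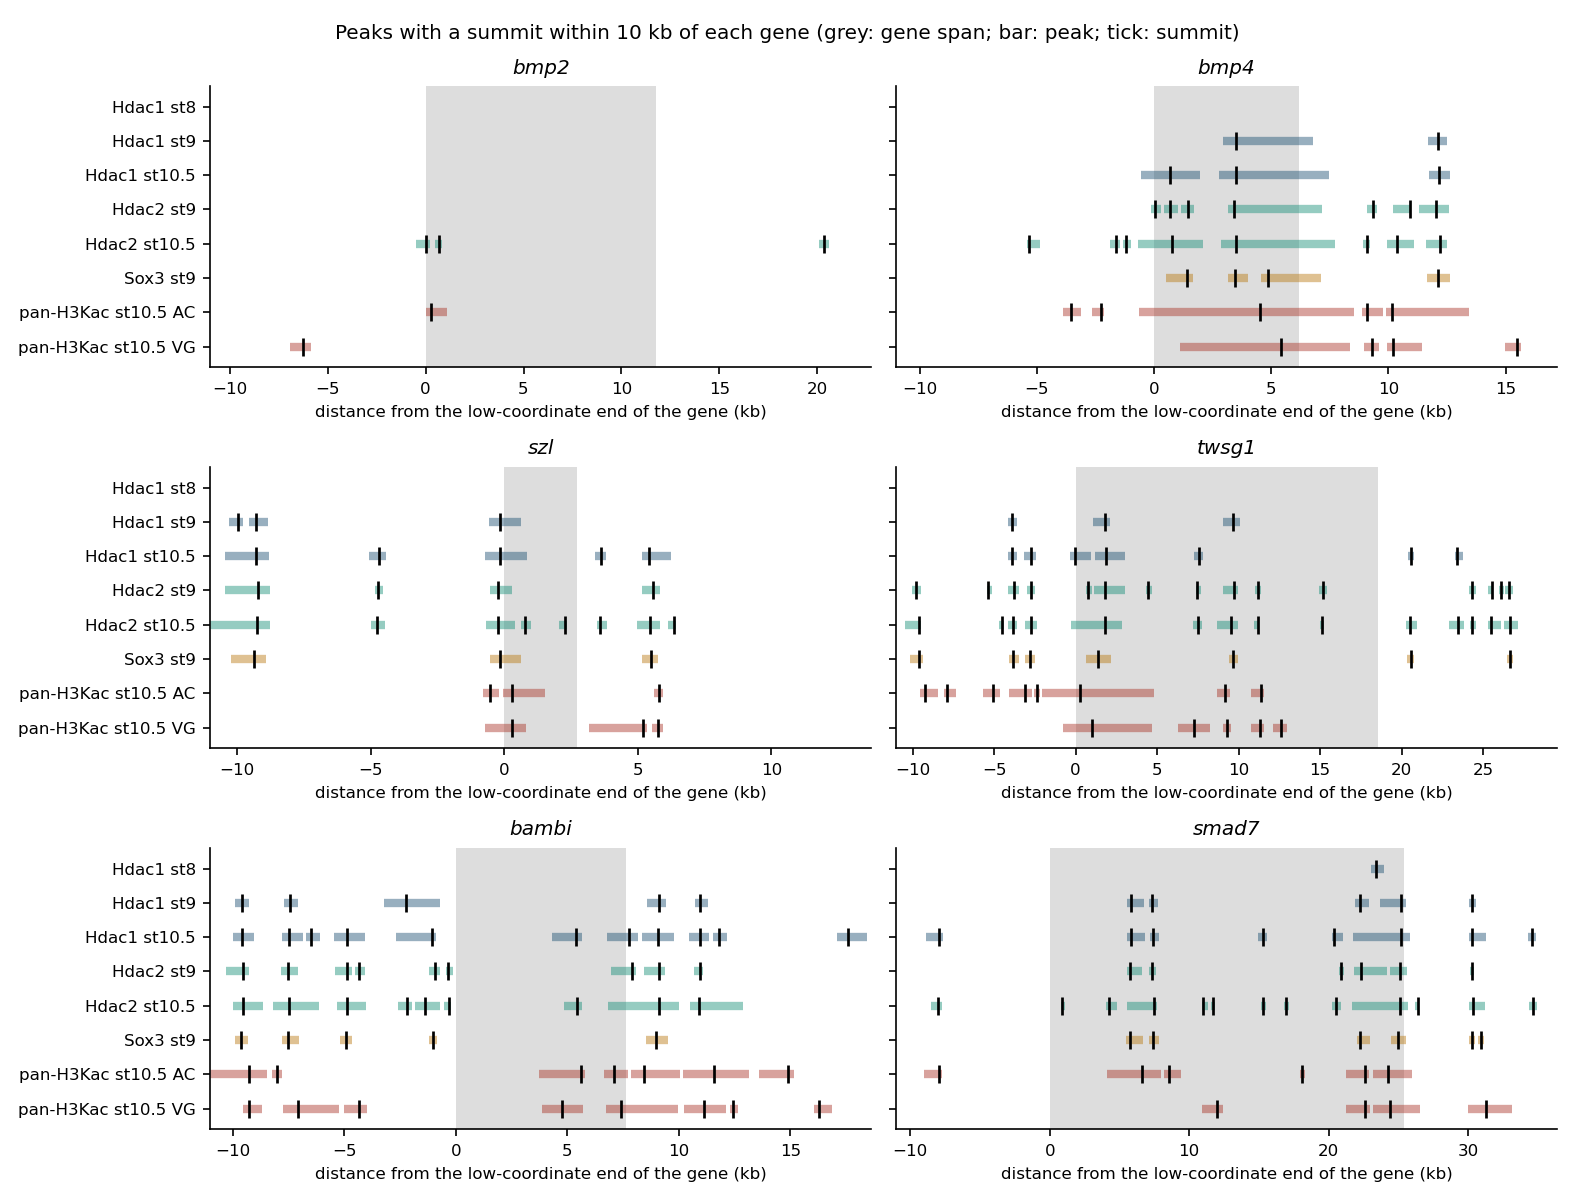
Hdac1, Hdac2, Sox3 and H3Kac peak summits around the 6 genes, as distance from the low end of each gene's annotated span in kb. Each row is a peak list, bars are peaks, ticks their summits, and the grey block is the gene's span. Hdac1, Hdac2 and Sox3 summits stack at shared places in bambi, szl, bmp4, smad7 and twsg1, and the bmp2 panel holds no summit of the st8 to st10.5 Hdac1 lists or of Sox3. Over the whole st9 Hdac1 list, 72.2% of summits lay within 100 bp of a Sox3 summit.

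H3Kac peaks at st10.5 were near all 6 genes in whole embryos (54.8% of all genes), in AC DMSO (50.2%) and in VG DMSO (48.1%). The highest enrichment near each gene was greater in AC than in VG for all 6. The share of all genes with that direction was not counted, so this has no background to be set against. Peaks near szl covered 2510 bp in AC and 4151 bp in VG, whereas near each other member they covered more in AC. bambi had 21.5-fold enrichment in AC and 12.3-fold in VG, a ratio of 1.75, and smad7 22.9-fold in AC and 18.1-fold in VG, a ratio of 1.27. The ratio was 1.24 for szl, 1.18 for twsg1 and 1.12 for bmp4. For bmp2, whose RNA was lower in AC, it was 1.37, but its AC summit lay inside the span near the overlap with LOC105947449. Its only VG peak, with a summit 6287 bp below the span, lay outside bmp2 and wholly within LOC105947449. That peak is counted for bmp2 by distance alone and cannot be assigned to it. The deposited lists merge both replicates of a tissue, so these ratios have no replicate error and no test, and the enrichment was not scaled between the tissues here. The direction was not the same at every place near bambi. In the stretch of overlapping peaks at chr6:24138473-24146649, which holds the strongest shared Hdac1 and Sox3 site, H3Kac was 4.36-fold in AC, against 9.64-fold and 5.12-fold in VG. In the next stretch below it, at chr6:24135645-24138252, it was 12.8-fold in AC and 6.88-fold in VG. H3Kac peaks were wide, up to 9192 bp in bmp4 in AC. Of the 18 st9 Hdac1 peaks near the members, 13 overlapped an AC peak (52.3% of the Hdac1 list) and 11 a VG peak (38.5%), but no Hdac1 summit lay within 100 bp of an H3Kac summit in either tissue (2.63% and 2.24% of the list).

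Hdac1 was also mapped in TSA-treated and DMSO-treated embryos, with 1 library each, so the comparison has no replicate and no test. At st9, 39 of the 52 DMSO peaks near the members overlapped a TSA peak, and in 36 of these (92.3%) the enrichment was lower with TSA, with a median ratio of TSA to DMSO of 0.74. Over all DMSO peaks of that stage the share was 71% and the median ratio 0.831. At st10.5, 42 of 58 peaks overlapped a TSA peak and 35 of these (83.3%) were lower with TSA, at a median ratio of 0.706, beside 56.6% and 0.937 over all peaks. At bambi, 9 of 10 matched peaks at st9 and 9 of 9 at st10.5 were lower with TSA, and at szl 5 of 5 and 5 of 7. The median ratios at szl were 0.831 and 0.902, near those of all peaks. At twsg1, whose RNA was not called, 13 of 13 and 8 of 11 were lower, at median ratios of 0.736 and 0.849. The numbers were 5 of 6 and 7 of 8 at smad7 and 4 of 5 and 5 of 6 at bmp4. Lower Hdac1 enrichment was thus not limited to the genes whose RNA fell. Peaks without an overlapping TSA peak, 13 at st9 and 16 at st10.5, are not in these ratios. The ratios start from peaks called with DMSO, and the members' peaks were not matched for strength with the whole list. The paper's differential peak analysis, on reproducible peaks, found almost no Hdac1 peaks changed by TSA at either stage. That is another measure and another set of peaks than the untested ratios here. The paper also reports unchanged Hdac1 and Hdac2 protein levels, and Hdac1 signals that correlated better between DMSO and TSA than between batches. From this evidence it proposes that TSA leaves Hdac1 recruitment unaltered.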

How the data were processed

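Expression was measured by RNA-seq of 16 explant libraries and binding by ChIP-seq, of which 13 peak lists are used. The authors aligned RNA reads to the v10.0 genome with STAR 2.7.3a, and RSEM 1.3.3 gave the deposited expected counts and TPM per gene. The authors called peaks with MACS2 (2.7.1 in the submitters' processing notes), and the deposited lists give fold enrichment over input and −log10 q. For the Hdac1 stage lists and Sox3, reproducible peaks at an irreproducible discovery rate of 0.05 were kept, and column 7 of the deposited Sox3 list was taken as a score because its values are not on the scale of the other lists. H3Kac lists hold peaks shared by 2 replicates, and the authors downsampled the second explant replicates. Hdac2 and the Hdac1 TSA and DMSO lists are single libraries.

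Expected counts were rounded, filtered with filterByExpr and scaled by TMM. The 8 libraries of an experiment were fitted in 1 model of group means with edgeR 4.0.16 (quasi-likelihood) in R 4.3.3, without a term for the replicate number. The alternatives were DESeq2 1.42.0, limma 3.58.1 on log2(TPM + 1) and log2(TPM + 0.1), other normalization and filters, blocks, and omitted libraries. Likelihood ratio tests and the fit without both libraries rich in ribosomal RNA were added after seeing the data. Scripts were tested on simulated data. Libraries held 16892304 to 54350327 expected counts. The intervals rest on a spread that edgeR estimated over all groups of a fit, with 2 replicates per group, and moderated across genes. They do not measure the spread of the 2 compared groups alone.

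Genes were matched by symbol, and 26531 of the 28850 genes had one. Peaks were assigned by summit within 10 kb of a gene's RefSeq span, and lists were taken to overlap at 1 bp. Strand, exons, promoters and proteins were not used here. The 6 genes, the pathway list and the markers were chosen with earlier results of these data known. Up to 4 called pathway genes per role are named, by size of the log2 fold change, and the 2 genes most like each member. H3K18ac, Hdac1 with α-amanitin and its control, and H3Kac under TSA were not analysed here.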

Additional observations from a re-analysis of the deposited data

Results flagged for a closer look

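The response to TSA differed between AC and VG for bambi by -3.0 and for szl by -5.55 on the log2 scale, and both were picked out because the difference itself passed edgeR's interaction test (adjusted p = 0.0377 and 0.0169). For bambi, 39.3 and 30.0 CPM in AC TSA against 316 and 239 CPM in AC DMSO stand beside 73.0 and 74.0 CPM in VG TSA against 69.5 and 77.1 CPM in VG DMSO. For szl, 2.64 and 2.2 CPM in AC TSA against 124 and 117 CPM in AC DMSO stand beside 7.23 and 4.69 CPM in VG TSA against 7.86 and 4.84 CPM in VG DMSO. In the VG, szl was already low with DMSO, so a further fall there rests on few counts. Neither call remained when any 1 of the 8 libraries was omitted (adjusted p between 0.0593 and 0.303, edgeR).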

How the results depend on the processing

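Each of 57 gene results was recomputed under every alternative. Of the 1085 values, 969 kept their direction and their side of the threshold, 62 lost the call, 26 gained one and 28 changed sign. A lone library, once 1 was omitted, was assumed to vary like the other groups. The lowest expected count of a member was 49, for szl.

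The number of the 6 members called moved as follows. For TSA in VG it was 1 with DESeq2, with the replicate block within tissue and with the likelihood ratio test, against 0. For VPA in AC it was 5 with DESeq2, 4 with the block within tissue and 5 with the likelihood ratio test, against 2. For the TSA interaction it was 1 with limma on log2(TPM + 1), 0 on log2(TPM + 0.1) and 1 with all 16 libraries in 1 fit, but 3 with DESeq2 and with the block within tissue (smad7 added), against 2, and for the VPA interaction 2 with DESeq2, against 0. Leaving out libraries gave 0 to 3 members for TSA in AC (at least 2 with 1 library left out, 0 without AC TSA replicate 2 and AC DMSO replicate 2), 0 for the TSA interaction, 0 to 2 for VPA in AC, and for AC against VG 2 to 4 in water, 1 to 3 under TSA and 0 to 1 under VPA.

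Nothing in the labels links samples with the same replicate number. Deviations of same-numbered libraries correlated at r = 0.80 and 0.78 between TSA and DMSO within AC and VG, at -0.10 to -0.05 across tissues in that experiment, and at 0.46 to 0.63 in the VPA experiment. With the replicate block the estimate was -0.000242 for bambi under TSA in VG and 0.031 for the bmp4 VPA interaction, both of the other sign and near 0, and szl under VPA in AC was called (adjusted p = 0.0475, edgeR). With the replicate block within tissue, edgeR called bmp4 for TSA in AC and VG and for VPA in AC (adjusted p = 0.000562, 0.00309 and 0.0452) and smad7 in the TSA interaction (0.00354). Pathway genes called in AC were 7 higher and 17 lower for TSA and 3 and 13 for VPA with the block within tissue, and 0 and 14 for TSA and 3 and 14 for VPA with the replicate block. bambi under VPA in VG was 0.0121 with limma on log2(TPM + 1) and 0.0127 on log2(TPM + 0.1), also of the other sign.

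Leaving out libraries changed the sign of 13 results, none of them called. The log2 values ran between -0.069 and 0.077 (bambi, TSA in VG), -0.54 and 0.32 (bambi, VPA in VG), -0.11 and 0.72 (bmp2, TSA in AC), -0.37 and 0.88 (bmp4, TSA interaction), -0.56 and 0.37 (bmp4, VPA interaction), -0.56 and 0.19 (smad7, AC against VG under TSA), and -0.68 and 0.012 (smad7, TSA minus VPA effect in AC). For szl they ran between -0.44 and 0.30 (TSA in VG), -2.50 and 0.13 (VPA in VG) and -0.26 and 2.35 (AC against VG under VPA), and for twsg1 between -0.90 and 0.032 (TSA in AC), -0.14 and 0.064 (TSA in VG) and -0.19 and 0.41 (VPA in AC).

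Calls over all genes moved as well, and the cause was not tested. For TSA in AC 350 genes were called, against 1005 with DESeq2, 967 with the likelihood ratio test, 1674 with the block within tissue, 585 with all 16 libraries, 31 to 153 with 1 library left out and 2 without both libraries rich in ribosomal RNA. For VPA in AC 319 were called, against 922 with DESeq2, 942 with the likelihood ratio test, 823 with the block within tissue, 996 with the replicate block, 537 without the filter and 1 to 97 with 1 library left out. For TSA in VG 2 genes were called, against 212 with DESeq2, 0 with the replicate block, 183 with the likelihood ratio test, 263 with the block within tissue, 23 without the filter, 17 with all 16 libraries, 5 and 0 with limma and 0 to 1 with libraries left out. For VPA in VG 0 were called, against 376 with DESeq2, 340 with the likelihood ratio test, 241 with the replicate block, 26 with the block within tissue, 73 without the filter, 34 with all 16 libraries and 7 with limma on log2(TPM + 1). For the TSA interaction the 13 calls compare with 226 with DESeq2, 1149 with the block within tissue, 20 with the replicate block, 38 without the filter, 28 with all 16 libraries, 7 and 3 with limma and 0 to 8 with libraries left out, and for the VPA interaction the 1 call compares with 113 with DESeq2, 3 and 19 with the 2 blocks, 4 without the filter, 2 with all 16 libraries, 2 with limma and 0 to 3 with 1 library left out. For the TSA effect minus the VPA effect in AC, 0 were called, against 7 with DESeq2, 2 with the block within tissue and 2 with limma on log2(TPM + 1). AC against VG under DMSO and under TSA had 3311 and 3117 calls, against 5271 and 5121 with the block within tissue and as few as 1753 and 1408 with 1 library left out. In water and under VPA the 2266 and 1935 calls compare with as few as 1173 and 1036. Counts of members with a peak stayed within 1.5-fold under every alternative.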

Other observations

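A few pathway genes that missed the threshold in the comparisons below are given as values, and they were picked after their levels were seen. chrd.1, which encodes the BMP antagonist Chordin that Sizzled protects, averaged 47.8 ± 45.1 CPM in AC TSA and 2.73 ± 1.92 CPM in AC DMSO (SD, n = 2), with a log2 fold change of 4.16 (adjusted p = 0.074, edgeR). The AC TSA libraries of chrd.1 were far apart, as the SD shows. In AC VPA it averaged 16.8 ± 10.6 CPM and in AC water 4.17 ± 5.01 CPM (1.99, adjusted p = 0.535, edgeR). The ligand gene bmp7.1 differed by -4.60 for TSA against DMSO and by -4.10 for VPA against water in the AC (adjusted p = 0.121 and 0.112, edgeR).

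smad4.1 was low under both inhibitors in the VG as well as in the AC. It averaged 7.74 ± 0.290 CPM in VG TSA and 33.6 ± 0.120 CPM in VG DMSO (SD, n = 2), a log2 fold change of -2.12 (adjusted p = 0.0776, edgeR). In VG VPA it averaged 17.2 ± 1.61 CPM and in VG water 60.2 ± 4.74 CPM (-1.81, adjusted p = 0.15, edgeR). The groups did not overlap in either comparison, and neither passed the test.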
